A study of Dirofilaria immitis with 5 samples.

Results

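Small RNAs released into culture medium were compared between fourth-stage larvae and microfilariae of Dirofilaria immitis, the heartworm of dogs and a filarial nematode. These were 2 of the 5 libraries of the series, which also covered third-stage larvae and adults of both sexes. Each library came from the concentrated medium of whole live worms of one stage, and the labels give no strain, host, worm number or culture time. Fourth-stage larvae are the tissue-dwelling larvae that follow the infective stage, and microfilariae are the offspring that adult females release into the blood. There was 1 library a side and no replicate, so no test across samples was possible, and every statement compares libraries. The deposited table held 1228 distinct sequences with a read count in each library. Of these, 157 had 10 or more reads in either library and were compared. They were 71 of 173 rows named after known nematode miRNAs and 86 of 1055 predicted candidates, whose names start with PC. Shares are given as percentages of all reads that a library has in this table, and folds compare the share in fourth-stage larvae with that in microfilariae. Parentheses after a value hold its exact 95% binomial interval, which covers counting error alone, since amplified reads that carry no molecular identifier do not each stand for a separate molecule. A share is a part of a library's table reads and not an amount, so it also falls where another row takes more. Worm number, release per worm and RNA per cell are not given. Their part in a difference between the libraries cannot be told apart.

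MicroRNAs are short RNAs that pair through their seed, bases 2 to 8, with messenger RNAs and repress them. In Caenorhabditis elegans, lin-4 and let-7 are the founding members of the developmental timing pathway: lin-4 lowers the early larval regulators lin-14 and lin-28, and let-7 lowers lin-41 on the way to the adult. The miR-100/miR-51 family is shared by most animals, and C. elegans embryos need its miR-51 members. Parasitic nematodes release miRNAs in vesicles and protein complexes, and such RNAs can be found in host blood.

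The sequences below carry the comparison and are printed as the deposited table gives them, with the seed in capitals. The first set shows the rows that were far higher in the fourth-stage library.
bma-lin-4: tCCCTGAGacctctgctgcga
asu-lin-4-5p: tCCCTGAGacctctgctgtga
asu-let-7-5p: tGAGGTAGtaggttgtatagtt
cel-let-7-5p_R+1: tGAGGTAGtaggttgtatagttt
prd-let-7-5p_1ss12GA: tGAGGTAGtagattgtatagttt
bma-miR-5364: cGAGGTATtgtttattggctga
The lin-4 rows share 1 seed and differ by C19T, counted from 1 at the 5′ end of bma-lin-4. The let-7 rows share 1 seed. Of them, cel-let-7-5p_R+1 is asu-let-7-5p with 1 more base, and prd-let-7-5p_1ss12GA differs from cel-let-7-5p_R+1 by G12A. The row bma-miR-5364 shares bases 2 to 7 with let-7 and differs from asu-let-7-5p at base 8 by G8T. The second set shows rows that were far lower in the fourth-stage library.
bma-miR-100a_R+1: aACCCGTAgtttcgaacatgtgt
bma-miR-100b_R+1: aACCCGTAgatccgaacttgtgt
bma-miR-100c_R+1_1ss12CT: aACCCGTAgaattgaaatcgtgt
bma-miR-100d_R+1: tACCCGTAgctccgaatatgtgt
asu-miR-71-5p_R-2: tGAAAGACatgggtagtgaga
cel-miR-34-5p_R+1_1ss1AT: tGGCAGTGtggttagctggttgt
asu-miR-87b-3p: gTGAGCAAagtttcaggtgttc
hco-miR-993_R-1_2ss11GT22AG: tAAGCTCGtctctacaggcagg
hco-miR-307_R-3_1ss21TC: tCACAACCtccttgagtaagc
cel-miR-1-3p_R-1: tGGAATGTaaagaagtatgt
The 4 miR-100 sequences share 1 seed. Against bma-miR-100b_R+1, and counted from its 5′ end, bma-miR-100a_R+1 differs by A10T, C12T and T18A, and bma-miR-100d_R+1 by A1T, A10C, C17T and T18A. The last set shows an abundant row whose share was close in both libraries, followed by candidates from both ends of the order.
bma-miR-92_R+2: tATTGCACtcgtcccggcctga
PC-3p-389_2939: aAGCATTTggatgagttg
PC-3p-4596_246: aTAAAGCTagacgaccggag
PC-5p-717_1743: gTAGTTGGatctgcgtct
PC-5p-6667_154: cGCAGATCagtggactacagca

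The fourth-stage library had 6423977 mappable reads, of which 326187 (5.08%) fell in the table. The microfilarial library had 3595213, of which 727018 (20.2%) did. Reads over 25 nt, which the authors set aside, were 22.5% of adapter-containing reads in fourth-stage larvae and 58.9% in microfilariae. Since bma-lin-4 took most of the fourth-stage table, the ratios of the main rows are also given with that row left out of both sums, which left 33851 reads in fourth-stage larvae and 726987 in microfilariae. Relative to table shares, this multiplied each ratio of fourth-stage larvae over microfilariae by 9.64 (log2 3.27), while counting per mappable read multiplied each by 0.251 (log2 -1.99). Each factor holds for every row, so a ratio given by share alone can be carried to the other scalings by it. At 0 reads, 3 counts allow a share of up to 0.00092% in fourth-stage larvae and 0.000413% in microfilariae.

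Most compared sequences were lower in the fourth-stage library by share, around a few that were far higher. Of the 71 named rows, 10 (14.1%) were at least 2-fold higher in fourth-stage larvae and 57 (80.3%) at least 2-fold lower. Of the 86 candidates, 8 (9.3%) were higher and 63 (73.3%) lower. Once bma-lin-4 was set aside, the named rows divided more evenly, 18 higher (25.7%) and 14 lower (20%), and so did the candidates, 20 higher (23.3%) and 13 lower (15.1%). Among the rows lower by share, 15 named rows and 27 candidates had 0 reads in fourth-stage larvae. Over the fewer reads left there, 3 counts allow a larger share. No such named row could then be called lower. The one with most microfilarial reads, bma-miR-87b_R+2, had a ratio of at most 0.597. The more even split was thus partly fixed by this limit. Per mappable read, 7 named rows (9.86%) and 7 candidates (8.14%) were higher, and 61 (85.9%) and 78 (90.7%) were lower. Leaving bma-lin-4 aside, 6 of 70 named rows were at least 2-fold higher in fourth-stage larvae under all 3 scalings and 14 at least 2-fold lower under all 3. For 9 the call turned from one side to the other between scalings. Among the candidates these numbers were 7, 13 and 12. Of the 6 named rows higher under all 3 scalings, all but asu-let-7-5p had under 10 reads in microfilariae, and 3 were let-7 rows. Some of the 14 lower ones, such as asu-miR-87b-3p, had under 10 reads in fourth-stage larvae. By share, a row that reached 10 reads in fourth-stage larvae alone had to be higher there, since that table held fewer reads. This held for 6 named rows. Another 35 reached 10 reads in microfilariae alone, which favoured lower ratios but did not force them. Of the 29 named rows other than bma-lin-4 with 10 or more reads in both, 3 were higher and 24 lower by share, and 9 were higher and 10 lower with bma-lin-4 left out. At the edge of the 10-read minimum, 4 candidates had 10 reads in their higher library, and 1 just outside it had 9.

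**Figure D1:**
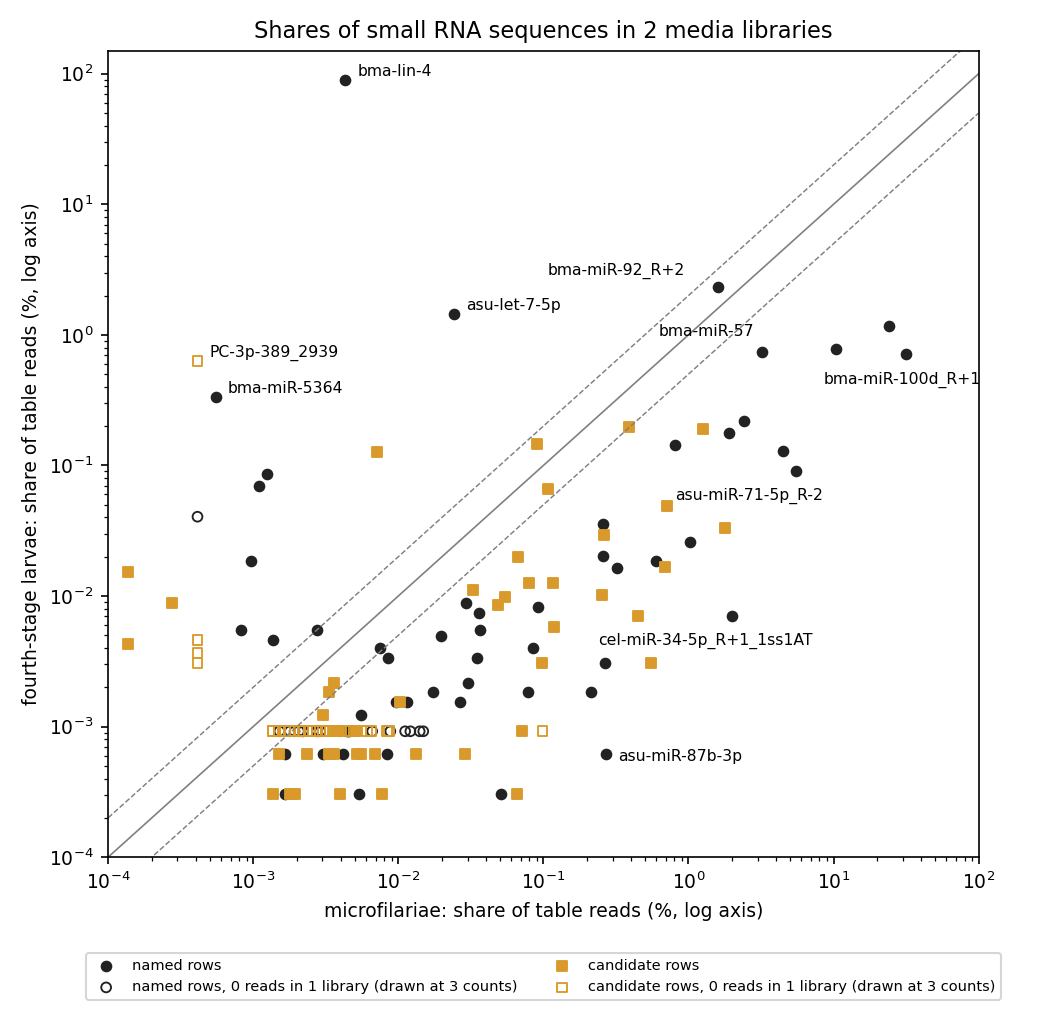
Each point is 1 of the 157 compared sequences, placed by its share of table reads in microfilariae (horizontal, log axis) and fourth-stage larvae (vertical, log axis); the solid line marks equal shares, the dashed lines 2-fold, and open points had 0 reads in 1 library. bma-lin-4 stands at 89.6% in fourth-stage larvae against 0.00426% in microfilariae, while the miR-100, miR-71 and miR-34 rows lie far below the line.

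The developmental timing miRNA lin-4 accounted for most of the fourth-stage table and was scarce in the microfilarial one. bma-lin-4 had 292336 reads in fourth-stage larvae, 89.6% (89.5 to 89.7) of the table, against 31 reads, 0.00426% (0.0029 to 0.00605), in microfilariae. It was 21018-fold (14807 to 30935) higher in fourth-stage larvae by share and 5278-fold higher per mappable read. The second lin-4 row, asu-lin-4-5p, had 132 reads (0.0405%) in fourth-stage larvae, against 0 reads in microfilariae. It made up 0.0451% (0.0378 to 0.0535) of the lin-4 reads in fourth-stage larvae, so that at the same proportion the 31 lin-4 reads of microfilariae were too few to show it. Neither row is listed with a match in the dog genome.

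The let-7 rows followed lin-4 and were higher in the fourth-stage library under all 3 scalings. asu-let-7-5p had 4684 reads (1.44%) in fourth-stage larvae, against 175 reads (0.0241%) in microfilariae. It was 59.7-fold (51.3 to 69.8) higher by share, 575-fold higher with bma-lin-4 left out and 15-fold higher per mappable read. Its longer form cel-let-7-5p_R+1 had 226 reads in fourth-stage larvae against 8 in microfilariae and was 63-fold (31.4 to 148) higher. The row prd-let-7-5p_1ss12GA, with 282 reads in fourth-stage larvae against 9 in microfilariae, was 69.8-fold (36.3 to 154) higher. All 3 compared let-7 rows were thus higher, against 14.1% of named rows, but cel-let-7-5p_R+1 and prd-let-7-5p_1ss12GA reached 10 reads in fourth-stage larvae alone and so had to differ. The let-7 list summed to 1.59% (1.55 to 1.64) in fourth-stage larvae, against 0.0265% (0.0229 to 0.0306) in microfilariae. The make-up of the let-7 reads was alike in both libraries within counting error. asu-let-7-5p made up 90.2% (89.4 to 91) of the 3 rows in fourth-stage larvae and 91.1% (86.2 to 94.8) in microfilariae, and prd-let-7-5p_1ss12GA 5.43% (4.83 to 6.08) in fourth-stage larvae and 4.69% (2.17 to 8.71) in microfilariae. For all 3 rows the table lists exact dog genome matches, as let-7 is conserved in mammals, and the part of host RNA in them was not tested. The row bma-miR-5364, which shares bases 2 to 7 with let-7 and has no listed dog match, had 1083 reads (0.332%) in fourth-stage larvae, against 4 reads (0.00055%) in microfilariae. It was 603-fold higher by share, 5815-fold higher with bma-lin-4 left out and 152-fold (59 to 557) higher per mappable read.

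The remaining named rows that were at least 2-fold higher in fourth-stage larvae were scarce. asu-miR-133-3p_L-1R+1_1ss22AG, of the muscle miRNA miR-133, had 60 reads in fourth-stage larvae against 7 in microfilariae and was 19.1-fold (8.72 to 49.5) higher by share, 184-fold higher with bma-lin-4 left out and 4.8-fold higher per mappable read. asu-miR-100a-5p_L+1R-3_1ss17AT, with 18 reads in fourth-stage larvae against 6 in microfilariae, was 6.69-fold (2.54 to 20.6) higher and 1.68-fold higher per mappable read. It was the single miR-100 row that was higher by share. bma-miR-72_R-2, with 15 reads in fourth-stage larvae against 10 in microfilariae, was 3.34-fold (1.41 to 8.32) higher by share and 32.2-fold higher with bma-lin-4 left out, but 1.19-fold lower per mappable read, and bma-mir-5841-p3, with 18 reads in fourth-stage larvae against 20 in microfilariae, was 2.01-fold (1 to 3.99) higher by share, with an interval that reached almost to equal shares, 19.3-fold higher with bma-lin-4 left out and 1.99-fold lower per mappable read. The last row was named after its values were seen. Rows listed with dog genome matches were 7 of the 10 named rows higher in fourth-stage larvae, 5 of them with exact matches. Among the 57 lower rows they were 9, with 4 exact. The exact ones that were higher are the 3 let-7 rows, the miR-133 row and asu-miR-100a-5p_L+1R-3_1ss17AT. All rows with a listed match summed to 2.8% of the table in fourth-stage larvae, against 5.34% in microfilariae, and those with an exact match to 1.88% in fourth-stage larvae against 1.24% in microfilariae. Without the rows listed with a match, 3 of 55 named rows were at least 2-fold higher in fourth-stage larvae and 48 lower. Their part in the result was not otherwise tested. No row bore the name of a vertebrate blood or liver miRNA such as miR-451, miR-223 or miR-122, which the naming after nematode miRNAs fixes. The embryonic miR-35/miR-36 family, which C. elegans embryos require, had 4 reads in fourth-stage larvae and 1 in microfilariae over its 6 rows, so no row was compared.

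bma-miR-92_R+2, of a family that regulates growth and the cell cycle in animals, lay near equal shares. It had 7553 reads (2.32%) in fourth-stage larvae, against 11626 reads (1.6%) in microfilariae, 1.45-fold (1.41 to 1.49) higher by share. After lin-4 it was the most abundant row of fourth-stage larvae, and without lin-4 it held 22.3% of the remaining fourth-stage reads against 1.6% of the microfilarial ones, 14-fold higher. Per mappable read it was 2.75-fold lower, so its direction changed with the scaling.

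The miR-100/miR-51 family, which made up most of the microfilarial table, was lower in the fourth-stage library under all 3 scalings as a sum. Its rows summed to 2.79% (2.74 to 2.85) in fourth-stage larvae, against 70.9% (70.8 to 71) in microfilariae, 25.4-fold (24.9 to 25.9) lower by share, 2.63-fold lower with bma-lin-4 left out and 101-fold lower per mappable read. Of its 8 compared rows, 7 were at least 2-fold lower, against 80.3% of named rows, and 1 higher, with a median log2 ratio of -3.08 beside -2.65 over all named rows. bma-miR-100d_R+1 had 2320 reads (0.711%) in fourth-stage larvae, against 231262 reads (31.8%) in microfilariae, 44.7-fold (42.9 to 46.6) lower. bma-miR-100a_R+1 had 3796 reads (1.16%) in fourth-stage larvae, against 176520 reads (24.3%) in microfilariae, 20.9-fold (20.2 to 21.6) lower. bma-miR-100b_R+1 had 2538 reads (0.778%) in fourth-stage larvae, against 75080 reads (10.3%) in microfilariae, 13.3-fold (12.8 to 13.8) lower. bma-miR-100c_R+1_1ss12CT had 424 reads (0.13%) in fourth-stage larvae, against 32440 reads (4.46%) in microfilariae, 34.3-fold (31.2 to 37.9) lower. Without lin-4, the d, c and a sequences were still at least 2-fold lower, at 4.64-fold, 3.56-fold and 2.17-fold, while b was 1.38-fold lower. Of the 8 rows, 3 were then at least 2-fold lower and 2 higher. The 2 higher rows were scarce. They were asu-miR-100a-5p_L+1R-3_1ss17AT, with 18 reads in fourth-stage larvae against 6 in microfilariae, and bma-mir-100a-p3, with 4 against 40. The latter was 2.15-fold higher, with an interval (0.558 to 5.94) that included equal shares.

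The order of these paralogs differed between the libraries, a comparison that no scaling can change. Among the reads of the 4 sequences, a led in fourth-stage larvae and d in microfilariae. bma-miR-100d_R+1 made up 25.6% (24.7 to 26.5) of them in fourth-stage larvae, against 44.9% (44.7 to 45) in microfilariae. bma-miR-100b_R+1 made up 28% (27 to 28.9) in fourth-stage larvae, against 14.6% (14.5 to 14.7) in microfilariae. bma-miR-100a_R+1 made up 41.8% (40.8 to 42.8) in fourth-stage larvae and 34.3% (34.1 to 34.4) in microfilariae, and bma-miR-100c_R+1_1ss12CT 4.67% (4.25 to 5.12) in fourth-stage larvae and 6.3% (6.23 to 6.36) in microfilariae. For each of the 4 the intervals did not overlap between the libraries, while the spread between cultures of 1 stage is not known. As printed above, the bases that tell the 4 apart lie outside the seed.

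**Figure D2:**
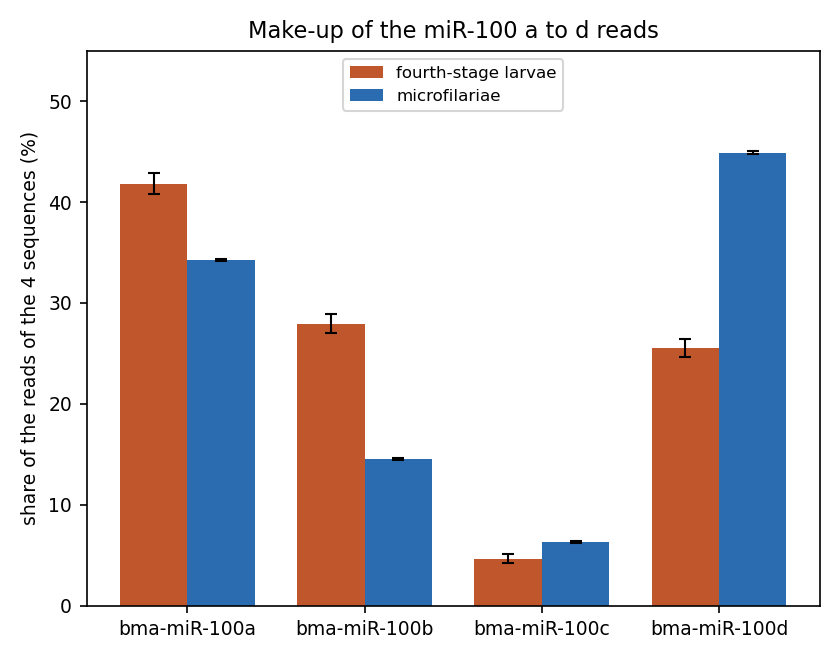
Bars give the share (%) of each of the 4 miR-100 sequences among the reads of all 4, in fourth-stage larvae (left bar of each pair) and microfilariae (right bar), with exact 95% counting intervals from 1 library each. The d sequence is at 25.6% in fourth-stage larvae and 44.9% in microfilariae, and the b sequence at 28% in fourth-stage larvae and 14.6% in microfilariae.

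The main rows of the stress and lifespan miRNAs miR-34 and miR-71 had some of the lowest ratios of fourth-stage larvae over microfilariae among named rows. In C. elegans, miR-34 acts in stress responses and miR-71 promotes long life. The main miR-34 row, cel-miR-34-5p_R+1_1ss1AT, had 23 reads (0.00705%) in fourth-stage larvae, against 14489 reads (1.99%) in microfilariae. It was 283-fold (188 to 446) lower by share, 29.3-fold lower with bma-lin-4 left out and 1126-fold lower per mappable read. Its longer form prd-miR-34-5p_R+3 had 0 reads in fourth-stage larvae against 88 in microfilariae, and the opposite strand asu-miR-34-3p_2ss11AG12CT 0 in fourth-stage larvae against 64 in microfilariae. In microfilariae the longer form was 0.604% of the reads of both forms, so 23 fourth-stage reads of the main form were too few to show it. asu-miR-71-5p_R-2 had 298 reads (0.0914%) in fourth-stage larvae, against 39766 reads (5.47%) in microfilariae, 59.9-fold (53.4 to 67.3) lower by share, 6.21-fold lower with bma-lin-4 left out and 238-fold lower per mappable read. Its longer form cel-miR-71-5p_R+1, with 6 reads in fourth-stage larvae against 572 in microfilariae, was 42.8-fold (19.5 to 117) lower and kept nearly the same proportion, 1.97% (0.728 to 4.25) of the 4 miR-71 5p rows in fourth-stage larvae and 1.42% (1.3 to 1.54) in microfilariae. All 5 compared miR-71 rows and all 3 miR-34 rows were at least 2-fold lower by share, against 80.3% of named rows. Of these, 3 miR-71 rows and 2 miR-34 rows had 0 reads in fourth-stage larvae. They and cel-miR-71-5p_R+1, with 6 reads there, passed the minimum through microfilariae alone. None of these rows is listed with a dog genome match.

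Like most named rows, miRNAs known from nerve and muscle cells were lower in the fourth-stage library by share, with miR-133 the exception. asu-miR-87b-3p, listed among the neuronal miRNAs, had the lowest ratio of the named rows, with 2 reads (0.000613%) in fourth-stage larvae, against 1956 reads (0.269%) in microfilariae. It was 439-fold (121 to 3626) lower by share, 45.5-fold lower with bma-lin-4 left out and 1748-fold lower per mappable read. bma-miR-87b_R+2, which differs from it by T12C, T21C and C22A, had 0 reads in fourth-stage larvae against 108 in microfilariae and was at least 16.2-fold lower. bma-miR-124_R-2, a miRNA of sensory neurons in C. elegans, had 5 reads in fourth-stage larvae against 192 in microfilariae, 17.2-fold (7.26 to 53.7) lower by share, 1.79-fold lower with bma-lin-4 left out and 68.6-fold lower per mappable read. bma-miR-7_R+1, with 24 reads in fourth-stage larvae against 260 in microfilariae, was 4.86-fold (3.2 to 7.72) lower by share and 19.4-fold lower per mappable read, but 1.98-fold higher with bma-lin-4 left out. All 5 compared rows of the neuronal list were at least 2-fold lower by share, against 80.3% of named rows. All except bma-miR-7_R+1 passed the minimum through microfilariae alone, which favoured lower ratios but did not force them. With bma-lin-4 left out, 1 was at least 2-fold lower and 1 at least 2-fold higher. The higher one was asu-miR-87b-5p_2ss8AG13AC, with 3 reads in fourth-stage larvae against 32 in microfilariae. It was 2.01-fold higher, with an interval (0.394 to 6.44) that included equal shares. The body muscle miRNA miR-1, as cel-miR-1-3p_R-1, had 60 reads (0.0184%) in fourth-stage larvae, against 4330 reads (0.596%) in microfilariae, 32.4-fold (25.1 to 42.5) lower by share, 3.36-fold lower with bma-lin-4 left out and 129-fold lower per mappable read. Its longer form cbr-miR-1_R+2, with 2 reads in fourth-stage larvae against 61 in microfilariae, was 13.7-fold (3.63 to 116) lower. Within the muscle list miR-1 and miR-133 thus lay on opposite sides under each of the 3 scalings. cel-miR-1-3p_R-1, bma-miR-124_R-2 and the miR-133 row have exact dog genome matches in the table, bma-miR-7_R+1 has inexact ones, and the miR-87b rows and cbr-miR-1_R+2 have none.

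A further set of miRNAs, not all of them abundant, was lower in fourth-stage larvae by share and per mappable read. They lay within 2.19-fold of equal with lin-4 left out. bma-miR-57, which acts in posterior cell fates in C. elegans, had 2403 reads (0.737%) in fourth-stage larvae, against 23516 reads (3.23%) in microfilariae, 4.39-fold (4.21 to 4.58) lower by share, but 2.19-fold higher with bma-lin-4 left out. bma-miR-228 had 578 reads (0.177%) in fourth-stage larvae, against 13774 reads (1.89%) in microfilariae, 10.7-fold (9.84 to 11.6) lower by share and 1.11-fold lower with bma-lin-4 left out. bma-bantam_R+1, of a family that promotes growth in Drosophila, had 708 reads (0.217%) in fourth-stage larvae, against 17521 reads (2.41%) in microfilariae, 11.1-fold (10.3 to 12) lower by share and 1.15-fold lower without lin-4. The miR-2 row bma-miR-2c_1ss20TC, of an invertebrate family, was 12.7-fold (9.93 to 16.5) lower by share and 1.32-fold lower without lin-4, with 66 reads in fourth-stage larvae against 1867 in microfilariae. asu-miR-279a-3p_1ss9TA, with 117 reads in fourth-stage larvae against 1870 in microfilariae, was 7.17-fold (5.95 to 8.72) lower by share and 1.34-fold higher without lin-4. hco-miR-9, with 11 reads in fourth-stage larvae against 255 in microfilariae and exact dog matches, was 10.4-fold (5.72 to 21.1) lower by share and level without lin-4, at 1.08-fold. Without lin-4 none of these rows was at least 2-fold lower, and bma-miR-57 was the one that was at least 2-fold higher. In the list that holds miR-57 and miR-228, bma-miR-50 and asu-miR-86-5p stayed at least 2-fold lower under all 3 scalings. bma-miR-50 had 84 reads (0.0258%) in fourth-stage larvae, against 7441 reads (1.02%) in microfilariae, 39.7-fold (32.1 to 49.9) lower by share and 4.12-fold lower without lin-4. asu-miR-86-5p had 53 reads in fourth-stage larvae against 2326 in microfilariae, 19.7-fold (15 to 26.4) lower by share and 2.04-fold lower without lin-4. asu-miR-81b-3p_1ss18TC, which shares its seed with bantam, had 13 reads in fourth-stage larvae against 618 in microfilariae and was 21.3-fold (12.4 to 40.3) lower by share and 2.21-fold lower without lin-4.

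Less studied rows completed both ends of the order. hco-miR-307_R-3_1ss21TC had 1 read (0.000307%) in fourth-stage larvae, against 368 reads (0.0506%) in microfilariae, 165-fold (29.5 to 6539) lower by share. hco-miR-993_R-1_2ss11GT22AG had 6 reads (0.00184%) in fourth-stage larvae, against 1540 reads (0.212%) in microfilariae, 115-fold (52.8 to 314) lower. crm-mir-239b-p5_1ss6AC, an 18-nt row with inexact dog genome matches, had 10 reads (0.00307%) in fourth-stage larvae, against 1920 reads (0.264%) in microfilariae, 86.1-fold (46.7 to 179.9) lower. All 3 stayed lower with bma-lin-4 left out, at 17.1-fold, 12-fold and 8.94-fold. Among the scarcer rows with the smallest differences, bma-miR-252_R-1 (29 reads in fourth-stage larvae against 213 in microfilariae), asu-miR-46-5p_1ss11TC (0.00491% in fourth-stage larvae against 0.0195% in microfilariae) and bma-miR-5866 (11 reads in fourth-stage larvae against 62 in microfilariae) were between 2.53-fold and 3.98-fold lower by share. All of these turned to between 2.42-fold and 3.81-fold higher with bma-lin-4 left out, and were between 10.1-fold and 15.9-fold lower per mappable read. asu-miR-184-3p_2ss11AT12CT (13 reads in fourth-stage larvae against 54 in microfilariae) was 1.86-fold (1 to 3.72) lower by share, 7.42-fold lower per mappable read and 5.17-fold higher without lin-4.

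**Figure D3:**
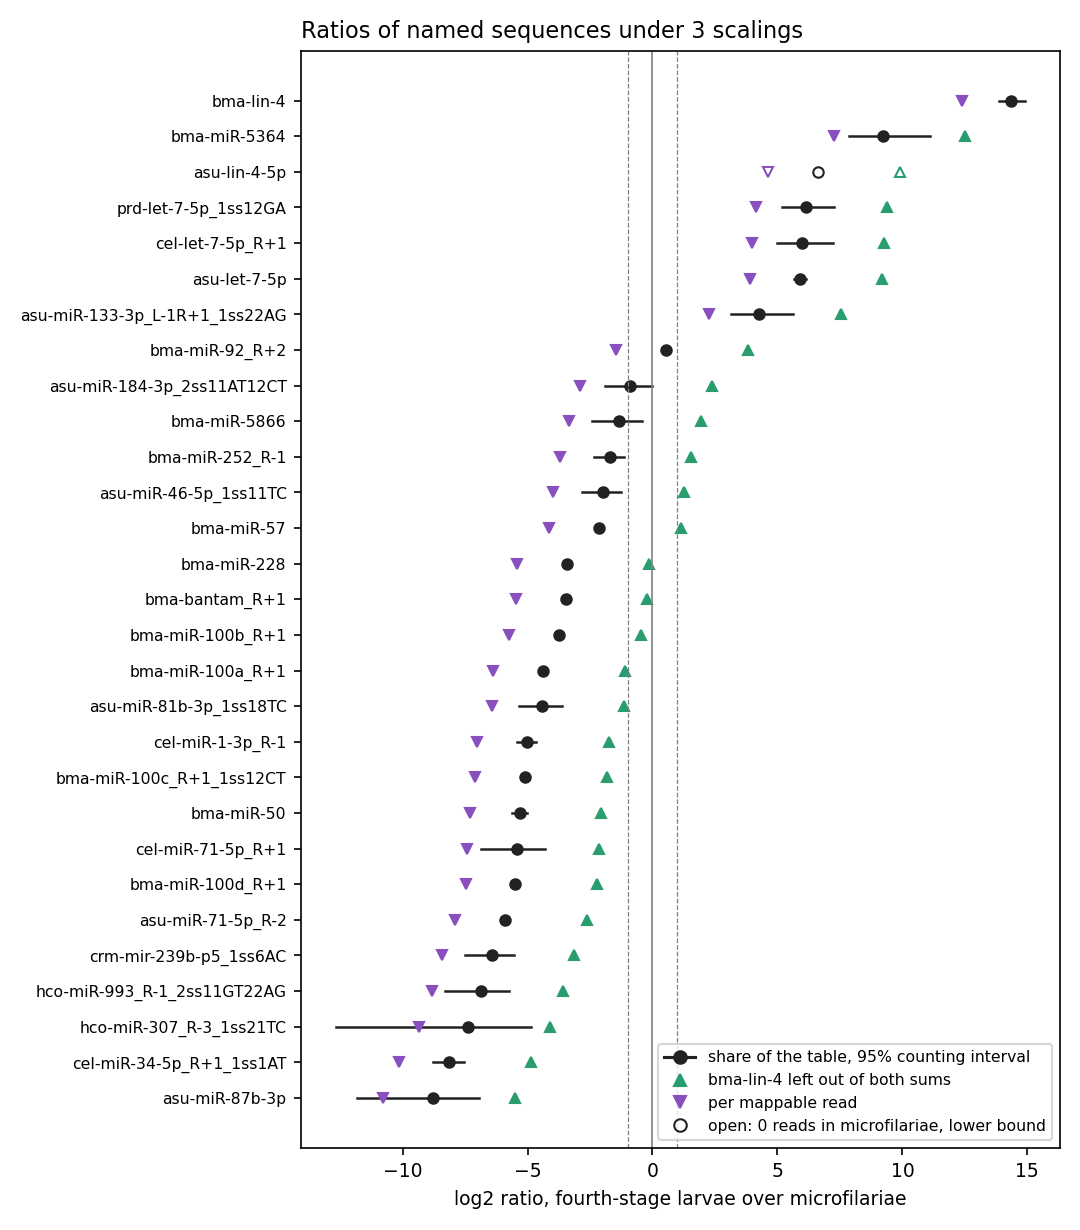
Points give the log2 ratio, fourth-stage larvae over microfilariae, of the most abundant named sequences and those with the highest and lowest ratios, under 3 scalings; black bars are 95% counting intervals, dashed lines mark 2-fold and open symbols are lower bounds. The lin-4, let-7, miR-5364 and miR-133 rows lie right of 0 under every scaling shown for them, and bma-miR-92_R+2, at 0.53 by share, changes side.

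By list, 5 of the 15 lists with a compared row summed to a higher share in fourth-stage larvae. These were the lin-4, let-7, miR-72/miR-31 and miR-92/miR-25 families and miR-5364. The miR-34 sum had the lowest ratio, with 0.00705% (0.00447 to 0.0106) in fourth-stage larvae, against 2.01% (1.98 to 2.05) in microfilariae. The neuronal list summed to 0.0113% (0.00799 to 0.0156) in fourth-stage larvae, against 0.352% (0.338 to 0.366) in microfilariae, and the muscle list to 0.0374% (0.0311 to 0.0447) in fourth-stage larvae, against 0.606% (0.588 to 0.624) in microfilariae. The miR-86 list, which holds miR-57 and miR-228, summed to 0.962% (0.929 to 0.996) in fourth-stage larvae, against 6.52% (6.46 to 6.57) in microfilariae. It was 6.78-fold (6.54 to 7.03) lower by share and 1.42-fold higher with bma-lin-4 left out. The miR-80/bantam sum was 11.2-fold (10.4 to 12.1) lower by share and 1.17-fold lower without lin-4, and the miR-9/miR-79 sum was 9.03-fold (5.55 to 15.7) lower and then level at 1.07-fold. Rows of a list can be length forms or both strands of 1 miRNA and are not independent.

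**Figure D4:**
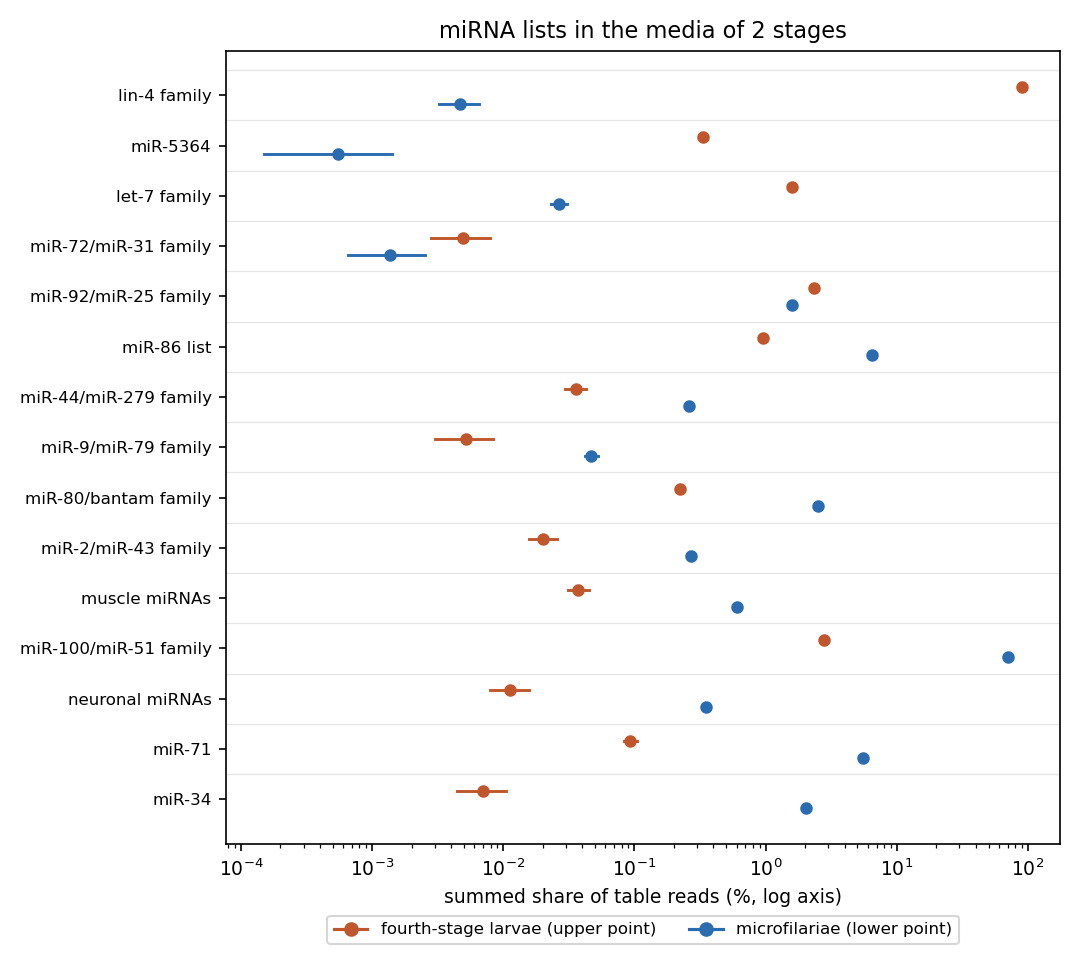
Points give the summed share of table reads (%, log axis) of each miRNA list with a compared row, for fourth-stage larvae (upper point) and microfilariae (lower point), with exact 95% counting intervals. The lin-4 family reaches 89.7% in fourth-stage larvae and 0.00468% in microfilariae, and the miR-100/miR-51 family 2.79% in fourth-stage larvae and 70.9% in microfilariae.

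The candidates, small RNAs that the authors predicted and that may include fragments of other RNAs, held 1.7% of the fourth-stage table and 7.75% of the microfilarial one. Of the reads other than bma-lin-4, they held 16.4% in fourth-stage larvae and 7.75% in microfilariae. The 18-nt PC-3p-389_2939, listed with inexact dog genome matches, had 2060 reads (0.632%) in fourth-stage larvae, against 0 reads in microfilariae, and was at least 1530.5-fold higher by share and at least 384-fold higher per mappable read. PC-3p-42148_13, also 18 nt and with inexact dog matches, had 50 reads in fourth-stage larvae against 1 in microfilariae and was 111-fold (19.1 to 4489) higher. PC-3p-4596_246 had 411 reads (0.126%) in fourth-stage larvae, against 52 reads (0.00715%) in microfilariae and was 17.6-fold (13.2 to 24) higher by share, 169.7-fold higher with bma-lin-4 left out and 4.42-fold higher per mappable read. It is identical to bma-miR-9-3p over bases 1 to 10, seed included, yet bma-miR-9-3p lay on the other side by share, with 5 reads in fourth-stage larvae against 70 in microfilariae, 6.28-fold (2.57 to 19.9) lower. Without lin-4, bma-miR-9-3p was 1.53-fold higher, and per mappable read it was 25-fold lower.

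At the other end, PC-5p-6667_154 had 1 read (0.000307%) in fourth-stage larvae, against 475 reads (0.0653%) in microfilariae, 213-fold (38.1 to 8435) lower. PC-5p-717_1743, 18 nt long and with inexact dog matches, had 10 reads (0.00307%) in fourth-stage larvae, against 4021 reads (0.553%) in microfilariae, 180.4-fold (98 to 377) lower. PC-5p-2643_466 had 0 reads in fourth-stage larvae, against 716 reads (0.0985%) in microfilariae, at least 107-fold lower. PC-3p-521_2331, the most abundant candidate of microfilariae, had 108 reads (0.0331%) in fourth-stage larvae, against 12879 reads (1.77%) in microfilariae, 53.5-fold (44.3 to 65.3) lower. These 4 were still between 5.55-fold and 22.1-fold lower with bma-lin-4 left out. PC-5p-263_4142 (54 reads in fourth-stage larvae against 5000 in microfilariae) and PC-3p-5721_189 (2 reads in fourth-stage larvae against 211 in microfilariae) were 41.5-fold and 47.3-fold lower by share. Near equal shares lay PC-3p-1789_713, 1.61-fold (1.43 to 1.81) higher, PC-5p-2587_476, 1.64-fold (1.41 to 1.92) lower, and PC-5p-799_1592, 1.97-fold (1.81 to 2.15) lower. PC-3p-2841_427, which begins with the whole sequence of PC-5p-799_1592, was 3.33-fold (2.57 to 4.39) lower, and PC-3p-4719_239 was 2.98-fold (2.09 to 4.36) lower. PC-3p-1789_713 was 15.5-fold higher with bma-lin-4 left out and 2.48-fold lower per mappable read, so its direction changed with the scaling. The other 4 of these turned to higher in fourth-stage larvae with bma-lin-4 left out, at between 2.89-fold and 5.87-fold, and the table lists exact dog genome matches for 3 of them, all but PC-5p-2587_476.

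Some candidates were forms of named rows, and their proportions could be compared within a library. PC-3p-2685_459 is bma-miR-2c_1ss20TC with 2 more bases at its 3′ end. It made up 4.35% (0.906 to 12.2) of the reads of both in fourth-stage larvae, with 3 of 69 reads, against 21.6% (19.9 to 23.3) in microfilariae, with 514 of 2381. The longer form was thus a smaller part of the miR-2c reads in fourth-stage larvae, beyond counting error. PC-5p-700_1781 differs from bma-miR-100c_R+1_1ss12CT in its last base by T23G. It made up 5.15% (3.29 to 7.62) of the reads of both in fourth-stage larvae and 9.15% (8.86 to 9.46) in microfilariae. For miR-46, fourth-stage larvae had 16 reads of asu-miR-46-5p_1ss11TC and 0 of cel-miR-46-3p_2ss12CT21CT, whereas both arms were found in microfilariae, the 3′ arm with 102 reads. The 3′ arm was 0% (0 to 20.6) of the reads of both arms in fourth-stage larvae, against 41.8% (35.5 to 48.3) in microfilariae. cel-miR-46-3p_2ss12CT21CT was named after its values were seen.

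The lengths of the reads followed the leading families. With all rows counted, 90.3% of the fourth-stage table reads were 21 nt, the length of bma-lin-4, against 6.84% of the microfilarial ones. With bma-lin-4 left out, 42.2% of the fourth-stage reads were 22 nt, the length of bma-miR-92_R+2, asu-let-7-5p and bma-miR-5364, against 5.14% in microfilariae. Reads of 23 nt, the length of all 4 miR-100 sequences, were 32% in fourth-stage larvae and 76.5% in microfilariae. Reads of 18 nt were 6.72% in fourth-stage larvae and 1.6% in microfilariae. In fourth-stage larvae most of them were PC-3p-389_2939, at 6.09%. Sequences starting with T, written for U, held 58.8% of the reads in fourth-stage larvae and 51.3% in microfilariae.

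**Figure D5:**
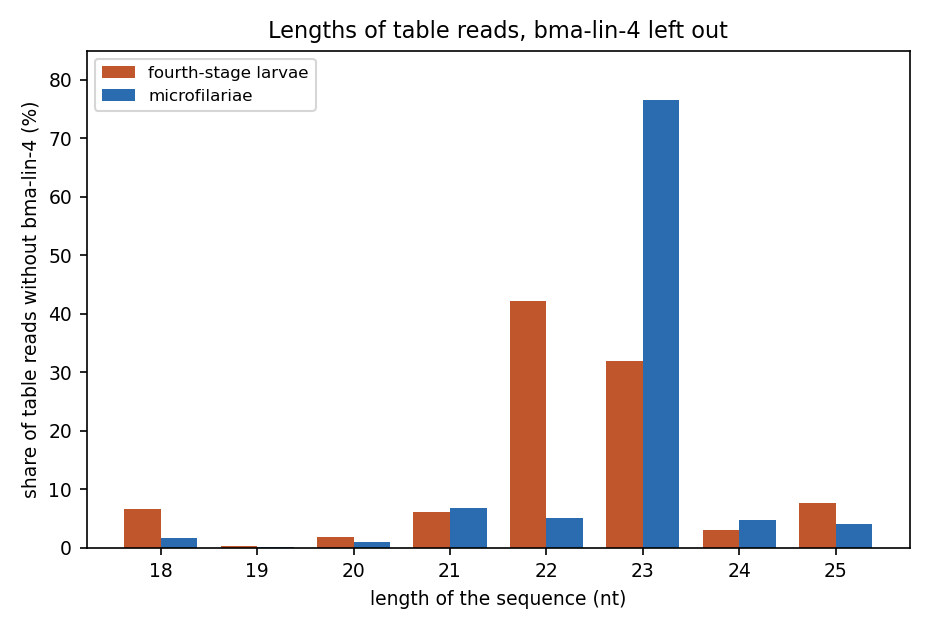
Bars give the share (%) of table reads at each sequence length (nt) with bma-lin-4 left out, for fourth-stage larvae (left bar of each pair) and microfilariae (right bar), 1 library each. Fourth-stage reads peak at 22 nt (42.2%) and microfilarial reads at 23 nt (76.5%).

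Fewer sequences were found in the fourth-stage medium, which also had fewer reads beside lin-4. At 10 or more reads, fourth-stage larvae had 36 named rows and 27 candidates, against 65 named rows and 79 candidates in microfilariae, and 30 named rows and 20 candidates reached it in both. If the microfilarial reads other than bma-lin-4 were drawn down to the 33851 such reads of fourth-stage larvae, 27.4 named rows and 22.2 candidates would be expected at 10 or more reads (exact hypergeometric expectation). Drawn down to the 326187 table reads of fourth-stage larvae with bma-lin-4 kept in, 53.3 named rows and 50.4 candidates would be expected. The numbers found in fourth-stage larvae were thus below the expectation at the full table depth and above it at the depth without bma-lin-4. The 36 named rows found include bma-lin-4, which the expectation at the lower depth does not count, and leaving it out keeps this order. Of the named rows at 10 or more reads in microfilariae, 17 had 0 reads in fourth-stage larvae, led by bma-miR-87b_R+2 with 108 reads in microfilariae. In the other direction asu-lin-4-5p was the single named row. Across the 157 rows, the rank correlation of reads (Spearman's rho) was 0.49, a description over rows that share 2 libraries. The 1071 rows below the minimum held 0.0733% of the fourth-stage and 0.138% of the microfilarial reads.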

How the data were processed

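Total RNA from the concentrated culture medium of live worms was extracted with a Norgen kit and made into Illumina TruSeq small RNA libraries, 1 for each stage, per the labels' protocols. The submitters' processing notes name bcl2fastq 1.8.4 and Bowtie. The authors trimmed the 3′ adapter and set aside reads under 18 or over 25 nt, per the file headers. Aligner settings, genome build and the release of the miRNA database were not given in the sources used here. The raw columns hold estimated counts that the authors deposited, rounded here to the nearest whole read. The normalized columns, a signal that the authors made by dividing each raw value by a library size parameter, gave no value printed here. Of the table, 1 line was not analysed here.

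Shares were taken over the 1228 rows of the table. The comparison, for rows at 10 or more reads in at least 1 of the libraries, was made with Python 3.11.15, numpy 2.4.6 and scipy 1.17.1, named and candidate rows apart. A row was called at a ratio of 2. Intervals are exact binomial intervals at 95%, conditional on the sum of both libraries for a ratio. A row at 0 reads was set at 3 counts in that library and its ratio given as a bound. Scalings tried besides table share were bma-lin-4 left out, mappable reads from the file header, the authors' library size parameter, TMM (edgeR 4.0.16 in R 4.3.3) and the median of ratios. Other minimums, thresholds, rows without dog genome matches and rows summed over their first 18 bases were also tried. The ratio of table shares and its interval were tested on simulated counts.

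The text names the 10 most abundant named rows of each library, the 12 highest and 12 lowest ratios among named rows with 50 or more reads, the 8 highest and 8 lowest among such candidates, and rows of the 17 miRNA lists. Of these, scarcer ones are given as counts. The rows and lists were chosen with earlier results of these data known. Rows can be length forms or variants of 1 miRNA, and the candidates were not checked to be miRNAs.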

Additional observations from a re-analysis of the deposited data

How the results depend on the processing

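No paired analysis was possible because each stage had 1 library, and with no replicate none could be left out. Each log2 ratio shifted by 3.27 with bma-lin-4 left out, -1.99 per mappable read, 3.50 with the authors' library size parameter, 1.68 with TMM and 1.74 with the median of ratios. With bma-lin-4 left out, 18 named and 20 candidate rows were higher and 14 named and 13 candidate rows were lower in fourth-stage larvae by at least 2-fold. With the authors' library size parameter, 24 named and 23 candidate rows were higher and 11 named and 11 candidate rows were lower in fourth-stage larvae by at least 2-fold. Without rows matching the dog genome, 3 named rows were higher in fourth-stage larvae by at least 2-fold. With no minimum, 19 named and 36 candidate rows were higher in fourth-stage larvae by at least 2-fold. With TMM, 35 named and 26 candidate rows were lower in fourth-stage larvae by at least 2-fold. With the median of ratios, 34 named and 24 candidate rows were lower in fourth-stage larvae by at least 2-fold. With a minimum of 50 reads, 3 candidate rows were higher and 26 candidate rows were lower in fourth-stage larvae by at least 2-fold. With a call at 4-fold, 41 candidate rows were lower in fourth-stage larvae at that threshold. The ratio of fourth-stage larvae over microfilariae is given in parentheses for each called list or main row of the text that crossed equality. Called rows outside these also crossed and are not listed. Between table share, bma-lin-4 left out and mappable reads, the call itself turned for 9 named rows and 12 candidates of those compared. With the authors' library size parameter, these were miR-80/bantam family (1.005), miR-9/miR-79 family (1.25), miR-44/miR-279 family (1.57), miR-86 list (1.67), PC-3p-2841_427 (3.39), PC-3p-4719_239 (3.79), asu-miR-279a-3p_1ss9TA (1.58), asu-miR-46-5p_1ss11TC (2.84), bma-bantam_R+1 (1.02), bma-miR-228 (1.06), bma-miR-252_R-1 (3.43), bma-miR-57 (2.57), bma-miR-5866 (4.47), bma-miR-7_R+1 (2.32), bma-miR-9-3p (1.8) and hco-miR-9 (1.09). Per mappable read, these were miR-72/miR-31 family (0.895), bma-miR-72_R-2 (0.839) and bma-mir-5841-p3 (0.504). With bma-lin-4 left out, these were miR-9/miR-79 family (1.07), miR-44/miR-279 family (1.34), miR-86 list (1.42), PC-3p-2841_427 (2.89), PC-3p-4719_239 (3.23), asu-miR-279a-3p_1ss9TA (1.34), asu-miR-46-5p_1ss11TC (2.42), bma-miR-252_R-1 (2.92), bma-miR-57 (2.19), bma-miR-5866 (3.81), bma-miR-7_R+1 (1.98) and bma-miR-9-3p (1.53). With TMM, these were PC-3p-4719_239 (1.08) and bma-miR-5866 (1.27). With the median of ratios, these were PC-3p-4719_239 (1.12), bma-miR-252_R-1 (1.01) and bma-miR-5866 (1.32). A scaling moves every ratio by 1 factor, so these crossings follow from the shifts above. The other counts moved because other rows or another threshold entered. bma-lin-4, the let-7 rows, bma-miR-5364, cel-miR-34-5p_R+1_1ss1AT, asu-miR-71-5p_R-2, asu-miR-87b-3p and hco-miR-993_R-1_2ss11GT22AG kept their side of equality in every setting that gave them a ratio. The spread between cultures of 1 stage is not known, and depth limits the rows with few reads.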

Other observations

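The other 3 libraries held the same miRNAs at these shares. bma-lin-4 held 70.6% of the table in third-stage larvae, 0.245% in adult females and 35.8% in adult males. bma-miR-5364 held 0.496%, 0.113% and 0.452%, above its 0.00055% in microfilariae in each. asu-let-7-5p held 5.21% in third-stage larvae, 0.0739% in adult females and 0.243% in adult males. bma-miR-100d_R+1 held 1.64% in third-stage larvae, 22.4% in adult females and 14.9% in adult males, bma-miR-100a_R+1 2.54% in third-stage larvae, 21.9% in adult females and 10.7% in adult males, and bma-miR-100b_R+1 2.98% in third-stage larvae, 16.9% in adult females and 3.1% in adult males. asu-miR-71-5p_R-2 held 0.122% in third-stage larvae, 1.49% in adult females and 1.57% in adult males. crm-mir-239b-p5_1ss6AC held 0.0029% in third-stage larvae, 1.35% in adult females and 0.0212% in adult males, against 0.264% in microfilariae. PC-3p-389_2939 had 2060 reads in fourth-stage and 3219 in third-stage larvae, and 0 in microfilariae, adult females and adult males. cel-miR-34-5p_R+1_1ss1AT held 0.0261% in third-stage larvae, 0.0601% in females and 0.121% in males, against 1.99% in microfilariae. asu-miR-87b-3p held 0.00871%, 0.0955% and 0.152%, against 0.269% in microfilariae. hco-miR-993_R-1_2ss11GT22AG held at most 0.055% outside microfilariae, where it held 0.212%. The third-stage and male libraries had 34448 and 32983 table reads, so their low shares rest on few reads.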
